A study of Mus musculus with 3 samples.

Results

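The cells described here are Ms4a7 macrophages without Lyve1 or Gpnmb from mouse aorta. A cell barcode was counted as a member when it held at least 1 unique molecular identifier (UMI, the count of 1 captured RNA molecule) of Ms4a7, at least 2 of C1qa, and 0 of Gpnmb, Lyve1, Folr2, Cd163, Treml4, Cd79a and Cd3e. Membership was thus chosen by measured UMIs of these 9 genes, and no value of them is a finding. This rule selected 714 of the 20903 barcodes with at least 200 detected genes and at most 10% mitochondrial UMIs. The control library held 169 members, the library labelled HHcy 90 and the library labelled WD 455. All mice of all 3 groups were labelled ApoE-/- on C57BL/6J, so the controls carried the same genotype label as the other groups. The Ctrl mice had the treatment label control and no further agent. The HHcy mice received homocysteine at 1.8 g/L in drinking water for 4 weeks, and the WD mice received a western diet for 4 weeks. Digestion of aortas with their adventitia was followed by sorting of live, nucleated CD45+ cells, that is cells of blood-forming origin, and each group gave 1 droplet library with 3' chemistry. The labels give neither the ages of the mice nor the number pooled in a library, so no spread between mice can be set against any difference below, and barcodes are not replicates.

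Macrophages of the aortic wall come from resident cells that were seeded early and renew locally, and from monocytes that enter from the blood. Resident adventitial cells are known for the hyaluronan receptor Lyve1 and the folate receptor Folr2, and lipid-laden cells of atherosclerotic plaques are known for the lipid-sensing receptor Trem2 and the glycoprotein Gpnmb. Ms4a7 is a membrane-spanning protein of mature macrophages, and C1qa is a chain of complement C1q. Mmp12 (macrophage elastase) and Mmp13 (collagenase 3) cut elastin and fibrillar collagen, both structural proteins of the aortic wall.

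The 3 libraries held 7512 to 9753 called barcodes and 66789257 to 105180370 UMIs. The median member had 8772 UMIs in the control library, 8374 in the HHcy library and 9631 in the WD library. Levels below are CPM, the UMIs of a gene summed over a class of barcodes and scaled to a fixed total of all UMIs of that class, and values in series follow the order control, HHcy, WD. Intervals are exact 95% intervals and cover counting error only. Apoe went against the label of the HHcy library, with 374 CPM over the whole library against 16.3 and 19.3 in the others. The members had 23.3, 359.8 and 17.4 CPM of Apoe, and 1, 10 and 0 of them held at least 10 Apoe UMIs. The labels do not say which stretch of Apoe is disrupted, and a 3' tag outside it checks no genotype. The genotype label and the chemistry were, however, the same for all 3 libraries. In every HHcy comparison below, a difference of genotype or of sample cannot be told apart from the treatment, and it was not tested. HHcy below is therefore the label of a library. Barcode sequences were shared by 20 to 24 called barcodes for each pair of libraries, 3 members had a sequence that also occurred in another library, and 0 were members in both. Members with at least 2 detected genes of another lineage, called mixed barcodes below, numbered 35, 36 and 99, which was 20.7%, 40% and 21.8% of the members. The gene lists that mark mixed barcodes were chosen after the data were seen.

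The marker genes beyond the rule described macrophages, but not every member held a UMI of each of them. Csf1r, the receptor for the macrophage growth factor CSF1, stood at 612, 633 and 631 CPM and was detected in 92.3%, 92.2% and 94.3% of members. The lipopolysaccharide co-receptor Cd14 was detected in 94.7%, 95.6% and 95.4%, and C1qb, another C1q chain, in 97.0%, 97.8% and 98.5%. Trem2 was detected in 68.0%, 55.6% and 71.0% of members, Nes in 42.0%, 34.4% and 35.8%, and Mmp12 in 41.4%, 42.2% and 22.9%. A barcode with 0 UMIs of a gene may still express it at this depth. The class is named here by its rule alone.

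Free RNA bears on the rule, since B cell barcodes (at least 2 UMIs of Cd79a, 0 of Csf1r) should lack these genes. The Ms4a7 and C1qa limits together were met by 0.660%, 0.956% and 2.54% of B cell barcodes. Their median depths were 7740.5, 6604 and 6806.5 UMIs. Mmp12 was detected in 1.74%, 1.34% and 3.28% of B cell barcodes, with 5.21, 1.62 and 4.61 CPM, far below the shares and levels of the members. Markers of other lineages in the members were mostly low but not absent. Endothelial genes summed to 15.8, 23.0 and 18.0 CPM, with 5, 4 and 3 of 11 genes at 0. B cell genes summed to 325, 389 and 314 CPM, and 0 of 12 were at 0. Neutrophil genes summed to 229.9, 9636 and 1561 CPM over 12 genes, against 4739, 21499 and 5459 in the other Csf1r barcodes, and none of the 12 was at 0. The neutrophil sum of the HHcy members thus stood above that of the other members, and its part in the HHcy values was not tested beyond the left-out barcodes given beside them.

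Barcodes at the limits of the rule are given as a description. The 24 members with exactly 2 C1qa UMIs had 94.8 CPM of Mmp12 and 197 of Trem2, and the 55 barcodes left out with 1 C1qa UMI had 12.1 and 100.0 CPM. The 101 members with 1 Ms4a7 UMI had 249.7 CPM of Mmp12 and 73.0 of Nes. The 524 barcodes left out with 0 Ms4a7 UMIs had 52.1 and 12.3 CPM. The 20 barcodes left out with 1 Gpnmb UMI had 425 CPM of Mmp12, 62.2 of Nes and 684 of Trem2.

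The members took the largest share in the WD library and the smallest in the HHcy library. They were 2.80% (interval 2.40 to 3.25) of all kept barcodes in the control library, 1.10% (0.888 to 1.35) in the HHcy library and 6.78% (6.19 to 7.41) in the WD library. As a share of the members and the other Csf1r barcodes together, they were 8.65%, 6.88% and 15.7%, so the order held within the myeloid barcodes. Among the 620, 435 and 1546 barcodes with Ms4a7, C1qa and no Cd79a or Cd3e, the members were 27.3%, 20.7% and 29.4%. Within that denominator the control and WD shares lay close together. Lyve1 was detected in 41.5%, 53.8% and 31.8% of the same barcodes and Gpnmb in 7.90%, 5.06% and 9.57%. A larger share can come from more members or from fewer other cells, and the 2 cannot be told apart from shares.

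Mmp12 was about equally high in the control and HHcy members and much lower in the WD members. Its level was 845 CPM (802 to 890) in the control members, 752 (695 to 812) in the HHcy members and 202 (189 to 214) in the WD members. The intervals of the control and HHcy members overlapped, and the WD interval lay far below both. The log2 ratio was -2.07 (-2.18 to -1.95) for WD over control and -0.17 (-0.30 to -0.03) for HHcy over control. Without the mixed barcodes the levels were 935, 967 and 224 CPM and the WD ratio was -2.06, and without the members holding at least 10 Apoe UMIs the HHcy level was 782 CPM. Thinned to 2000 UMIs per barcode, which left out 11, 1 and 12 shallower members, Mmp12 was detected in 34.2%, 34.8% and 10.6% of members. The level rested on few cells: the 10 members with the most Mmp12 held 51.2%, 67.0% and 51.0% of its UMIs, and the highest single members held 205, 110 and 128.

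Mmp13 followed a different order. It stood at 112 CPM (96.7 to 129) in the control members, 231 (200.2 to 265) in the HHcy members and 25.7 (21.5 to 30.4) in the WD members, and it was detected in 16.0%, 31.1% and 5.05% of them. The HHcy members were highest and the WD members lowest, with log2 ratios over control of 1.04 (0.75 to 1.34) and -2.13 (-2.46 to -1.80). Without the mixed barcodes the 3 levels were 84.4, 217 and 27.2 CPM, and without the members holding at least 10 Apoe UMIs the HHcy level was 214 CPM. The HHcy direction turned, to a log2 ratio of -0.25, under a stricter limit that left out every barcode with 3 UMIs of another lineage and kept 52 control and 17 HHcy members. Under the same limit the HHcy ratio of Mmp12 was 0.83. Fewer cells carried it than carried Mmp12, and 71.4%, 78.6% and 82.7% of the Mmp13 UMIs lay in the 10 highest members. B cell barcodes had under 1 CPM, namely 0.66, 0.80 and 0.67.

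Both collagen- and elastin-cutting enzymes are encoded on the plus strand of chromosome 9 in mm10, Mmp13 (ENSMUSG00000050578) at chr9:7272514-7283331 and Mmp12 (ENSMUSG00000049723) at chr9:7344381-7369499. Their upstream sequences are shown because the members that carried 1 of the genes often carried the other. Mmp13 was detected in 66 of the 212 members with Mmp12 (31.1%) and in 12 of the 502 without it (2.39%). The split was present in each library, with 34.3% against 3.03% in the control, 71.1% against 1.92% in HHcy and 14.4% against 2.28% in WD. After thinning the shares were 22.9% and 2.38%. These shares describe members that share libraries and depth. The lines below give the 250 bases before a RefSeq start (GRCm38.p6, plus strand, 5′ to 3′), chr9:7272264-7272513 for Mmp13 and chr9:7347124-7347373 for the second of the RefSeq starts of Mmp12, with the AP-1 motif TGANTCA in capitals.
Mmp13: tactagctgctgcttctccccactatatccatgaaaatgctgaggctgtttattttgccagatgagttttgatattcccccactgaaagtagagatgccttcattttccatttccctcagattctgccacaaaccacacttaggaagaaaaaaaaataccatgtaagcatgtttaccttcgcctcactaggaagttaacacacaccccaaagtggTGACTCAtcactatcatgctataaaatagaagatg
Mmp12: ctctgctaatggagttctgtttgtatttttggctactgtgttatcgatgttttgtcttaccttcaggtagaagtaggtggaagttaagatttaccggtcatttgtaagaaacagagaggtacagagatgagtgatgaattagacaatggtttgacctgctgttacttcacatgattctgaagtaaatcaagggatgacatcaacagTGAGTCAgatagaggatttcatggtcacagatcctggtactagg
The motif began 35 bases before the start of Mmp13 and 44 before the second RefSeq start of Mmp12, which lies inside the gene span given above. The window before the other RefSeq start of Mmp12, chr9:7344147-7344396, near the beginning of that span, did not hold these letters. Searched on both strands, the motif was found in 2217 of 32851 promoter windows of the same length (6.75%). A match in letters is a description and not a binding site.

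Nes encodes nestin, an intermediate filament protein best known from neural stem cells (ENSMUSG00000004891, chr3:87971078-87980451, plus strand). It was at 158 CPM (140 to 178) in the control members, 108 (87.3 to 132) in the HHcy members and 135 (125 to 145) in the WD members. The 3 libraries were close, with log2 ratios over control of -0.55 (-0.90 to -0.21) for HHcy and -0.23 (-0.44 to -0.03) for WD. The other Csf1r barcodes had 14.7, 9.41 and 20.6 CPM, the Lyve1 or Folr2 barcodes 29.5, 27.3 and 38.0, and the B cell barcodes 0.46, 0.28 and 0.96. Nes was thus higher in the members than in each of these classes in every library, by log2 ratios of 3.43, 3.52 and 2.71 over the other Csf1r barcodes. Without the mixed barcodes the Nes levels of the members were 173, 152 and 160 CPM.

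Trem2, a receptor for lipids and lipoproteins (ENSMUSG00000023992, chr17:48346401-48354147, plus strand), was at 419, 309 and 345 CPM in the members. The control members were highest, and the log2 ratios were -0.44 (-0.65 to -0.24) for HHcy and -0.28 (-0.41 to -0.15) for WD. The Gpnmb barcodes had more Trem2, 935, 1079 and 571 CPM, and the other Csf1r barcodes had less, 121, 91.6 and 163. The members stood between these classes in each library, and the rule itself favours less Trem2 than in the Gpnmb barcodes.

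**Figure D1:**
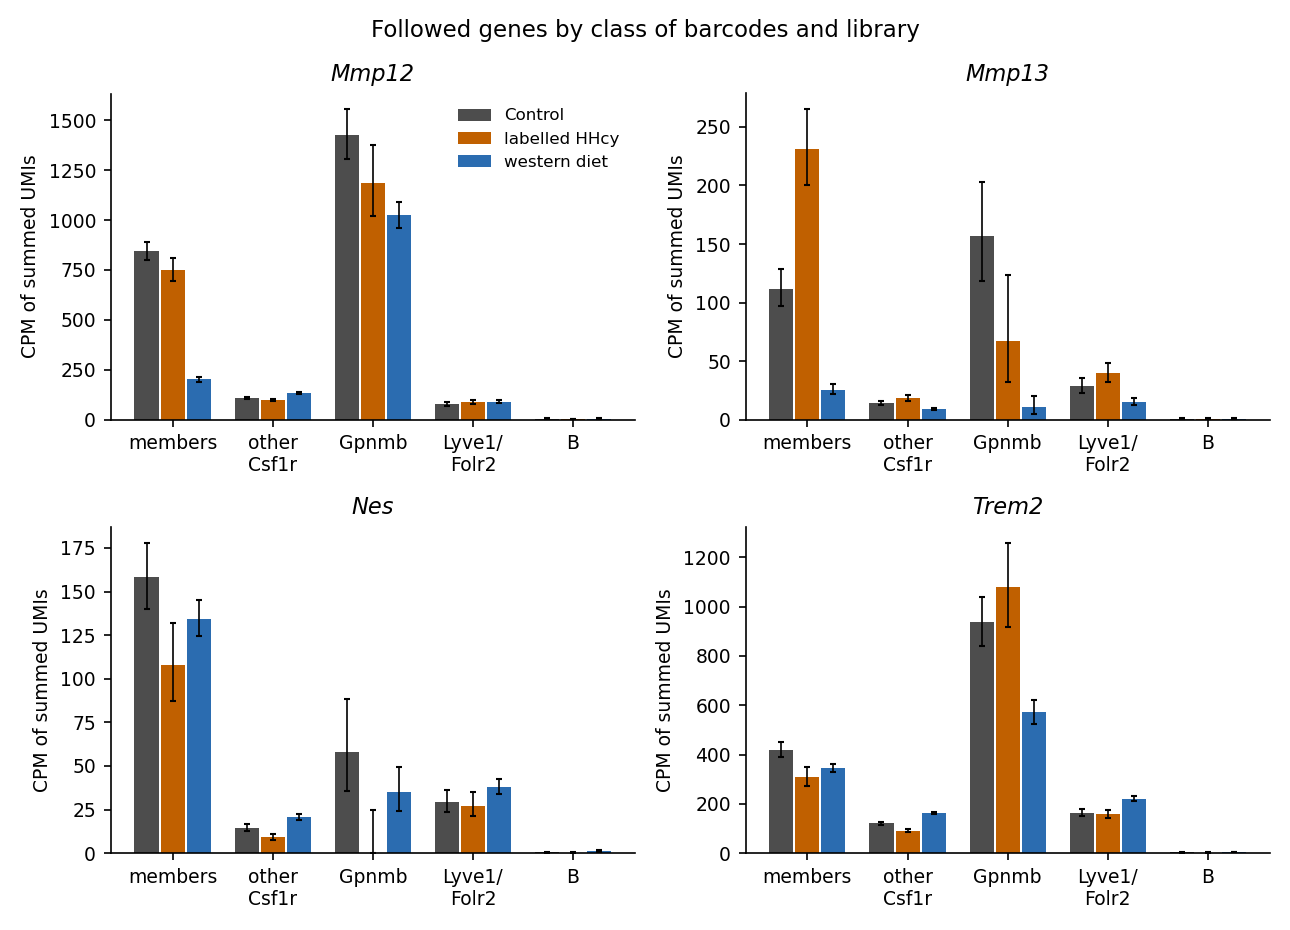
Levels of Mmp12, Mmp13, Nes and Trem2 in CPM (y axis) in the members and 4 comparison classes of barcodes (x axis) for the 3 libraries, with 95% Poisson bars for counting error. Mmp12 of the members is lowest in the WD library (202 CPM against 845 and 752), and Nes is higher in the members than in the other Csf1r, Lyve1 or Folr2 and B cell barcodes of every library.

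**Figure D2:**
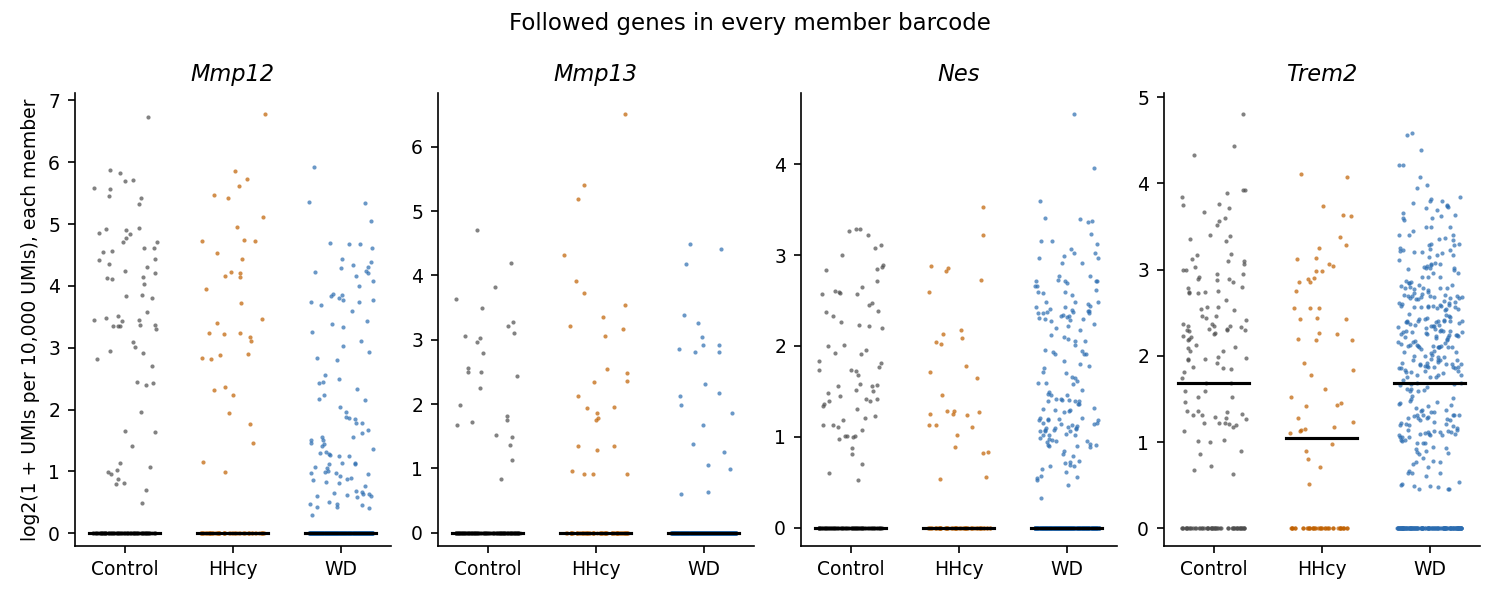
Level of Mmp12, Mmp13, Nes and Trem2 in each member, as log2 of 1 plus UMIs scaled to a common depth (y axis), by library (x axis), with 1 point per barcode and a black bar at the median. Most members lie at 0 for Mmp12, Mmp13 and Nes, and few members hold high values.

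Against the other barcodes with Csf1r and no Cd79a or Cd3e (1784, 1218 and 2438), the members were higher in a small set of genes that the rule did not name and lower in monocyte genes. A gene was called when it was past 2-fold in the same direction in all 3 libraries. Of 5109 genes with at least 20 CPM and 30 UMIs in the higher class, 239 were called (4.68%), 71 higher (1.39%) and 168 lower (3.29%). The rule used this contrast, so the values are a description.

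The highest mean ratio was that of Apbb2, an adaptor that binds the amyloid precursor protein. Apbb2 (ENSMUSG00000029207, chr5:66298703-66618784, minus strand) stood at 106, 82.8 and 75.7 CPM in the members and at 9.02, 4.74 and 12.96 CPM in the others. Its log2 ratios were 3.55, 4.12 and 2.55. Nes came next, and Cdk18, a cyclin-dependent kinase family member, followed with 62.4, 39.1 and 40.7 CPM in the members and log2 ratios of 3.32, 3.45 and 2.40. Ch25h, the enzyme that makes 25-hydroxycholesterol, stood at 70.0, 65.5 and 92.1 CPM in the members against 9.02, 7.16 and 16.9. Tmem119, a membrane protein best known from microglia, stood at 43.2, 44.8 and 43.1 CPM against 5.23, 3.73 and 11.1. Both genes had similar levels in the members of the 3 libraries.

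Cd72, a surface receptor shared with B cells, was at 639.5, 529 and 706 CPM in the members, with log2 ratios of 2.54, 2.90 and 2.03. Pmepa1, which dampens TGF-beta signalling, was at 358, 322 and 316 CPM with ratios of 2.64, 2.79 and 1.83. Tnfsf13b encodes BAFF, a survival factor for B cells, and was at 53.7, 83.9 and 44.2 CPM in the members against 9.58, 11.04 and 13.3. Zmynd15, Tmem171, Lhfpl2 and Mmp13 complete the named higher genes, with mean log2 ratios of 2.70, 2.92, 2.46 and 2.71. For each of the 12 the WD ratio was the lowest of the 3.

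Genes of blood monocytes led the lower side, a direction that the rule itself favours through its Treml4 and C1qa limits. Ace, angiotensin-converting enzyme, was at 5.25, 3.45 and 4.63 CPM in the members against 162, 105 and 83.5 in the others. Ceacam1, an adhesion molecule, was at 3.50, 5.75 and 4.83 CPM against 119.9, 98.8 and 76.2. Ly6c2, the classical monocyte surface antigen, was at 11.7, 81.6 and 62.9 CPM against 410.1, 578 and 365. The secreted proteins Retnla and Ccl8, known from resident and alternatively activated macrophages, were lower too, with mean log2 ratios of -3.85 and -3.80. The remaining named lower genes were Cd209f, Ly6i, Ear2, Chil3, Eno3, Slc12a2 and Hp, with mean log2 ratios from -4.02 to -3.29.

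**Figure D3:**
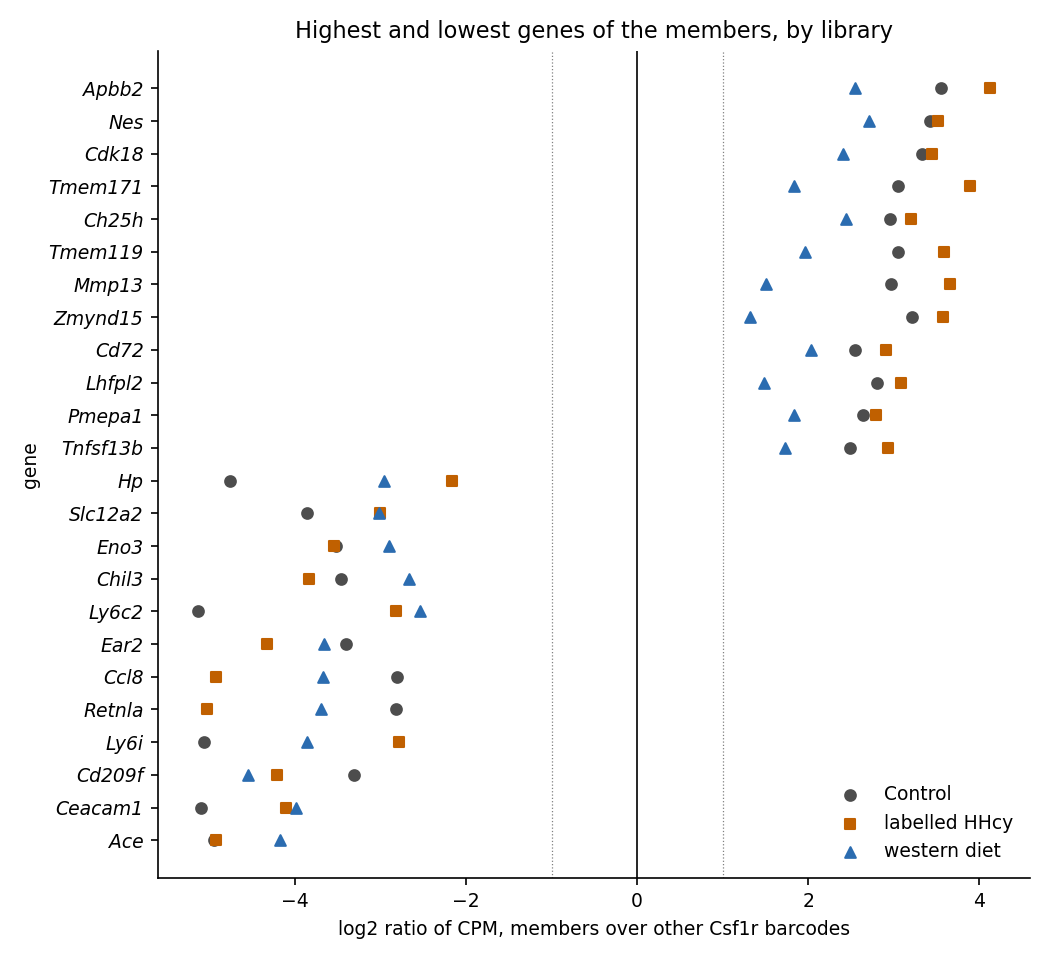
Log2 ratio of the members over the other Csf1r barcodes (x axis) for the 12 highest and 12 lowest named genes (y axis), 1 point per library, with dotted lines at 2-fold. Apbb2, Nes and Cdk18 lead the higher genes and Ace and Ceacam1 the lower ones, each past 2-fold in all 3 libraries.

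The gene lists are set beside the shares over all genes tested, 1.39% higher and 3.29% lower. At these shares, a list of 9 to 21 genes with no call is near the background and shows no likeness by itself. The median log2 ratio over all 5109 genes was -0.07. None of 16 core macrophage genes was called (median 0.32), and none of 9 genes for antigen presentation by MHC class II (median 0.46), 17 interferon-stimulated genes (-0.32) or 21 genes of the response to dissociation (-0.12). Of 13 genes of non-classical monocytes, 8 were lower and 0 higher (median -2.51). Of 13 genes of classical monocytes, 8 were lower and 0 higher (-2.35). The rule itself favours this direction for both monocyte lists, through its C1qa and Ms4a7 limits and the absence of Treml4. C1qa was detected in 61.0%, 63.8% and 77.8% of the other Csf1r barcodes. Of 7 genes of conventional dendritic cells, 5 were lower (-1.84), and of 19 resident macrophage genes 10 were lower (-1.58), a direction the rule itself favours through Lyve1, Folr2 and Cd163.

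Single genes of other lists were called. Cxcl16, a chemokine that also binds oxidised lipoprotein, was at 925, 772 and 818 CPM in the members against 274, 175 and 336 in the others. The receptors Axl, which binds dying cells through Gas6, and Itgb5, an integrin chain, were higher in the members, with Axl at 246, 257 and 217 CPM against 80.7, 64.7 and 93.5. Among 15 genes of apoptotic cell uptake, Axl and Itgb5 were higher and Gas6, Timd4 and Thbs1 lower. Of 21 genes of TREM2 and foam cells, 1 (Trem2) was higher (4.76%, against 1.39% over all genes) and 0 lower. A single gene does not set that list apart from the background. Ms4a14, a relative of Ms4a7, was at 65.3, 48.3 and 37.1 CPM against 10.9, 8.55 and 13.4.

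Against the 348, 273 and 735 barcodes that met the Ms4a7 and C1qa limits but carried Lyve1, Folr2 or Cd163, the members were higher in Mmp12 and Mmp14 and lower in resident macrophage genes. Of 5199 genes, 191 were called (3.67%), 57 higher (1.10%) and 134 lower (2.58%), with a median log2 ratio of -0.08. Mmp12 was at 79.3, 87.8 and 90.3 CPM in these barcodes, so its ratio was 3.41, 3.10 and 1.16. The WD library had the lowest Mmp12 among the members but not among the Lyve1 or Folr2 barcodes, where WD over control was 0.19 on the log2 scale. Mmp14, a membrane-bound collagenase, was at 121, 136 and 109.8 CPM in the members against 23.3, 19.7 and 42.3. Of 5 matrix metalloproteinases and inhibitors, these 2 were higher and Mmp9 lower, and Mmp13 was under 2-fold in the WD library (log2 0.74). Dcstamp, which takes part in macrophage fusion, was at 33.3, 39.1 and 28.4 CPM against 4.21, 4.20 and 7.98. Apbb2, Cdk18 and Lhfpl2 were among the highest genes here as well, with mean log2 ratios of 2.68, 2.31 and 2.22.

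The 6 named lower genes of that comparison included the C-type lectins Cd209f, Cd209d and Cd209g. Cd209f was at 2.33, 4.60 and 2.12 CPM in the members against 81.9, 348 and 119.5, and Ccl8 was at 12.3, 8.05 and 43.1 against 271, 899 and 1306. Cd209d, Cd209g, Colec12 and Pla2g2d were at 2.33 CPM or less in the members of every library. Of 20 resident macrophage genes, 16 were lower and 0 higher (median -2.78). The rule left out Lyve1, Folr2 and Cd163 by choice, so this direction is a description of the classes as chosen. Of 21 TREM2 and foam cell genes, Cd9 and Itgax were higher and the fatty acid receptor Cd36 was lower.

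The Gpnmb barcodes differed from the members in the rule by Gpnmb alone and numbered only 20, 10 and 52. Their medians of 16721.5, 15737 and 14921.5 UMIs were above those of the members. Of 2050 genes, 63 were called (3.07%), 41 higher in the members and 22 lower (1.07%), with a median log2 ratio of 0.22. The count depended on these settings: 4 genes were called when all barcodes were thinned to 2000 UMIs before the rule, and 3 with every barcode holding 3 UMIs of another lineage left out. The lower side held lipid and lysosome genes: of 19 TREM2 and foam cell genes 11 were lower in the members and 0 higher (median -1.41). The rule itself favours this direction, since it split the 2 classes by Gpnmb, a gene of lipid-laden cells. The lipid and lysosome values are thus a description of the classes as chosen. Atp6v0d2, a subunit of the proton pump of lysosomes, was at 11.1, 2.30 and 4.44 CPM in the members against 198, 215 and 76.4. Ctsd, a lysosomal protease, was at 817, 667 and 635.5 CPM against 3805, 2145 and 3022. The lipid carrier Fabp5 was at 203, 60.9 and 354 CPM against 1912, 1636 and 3622. Cathepsins as a list had 5 of 17 genes lower, namely Ctsb, Ctsd, Ctsl, Ctss and Psap, and 0 higher.

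Spp1, which encodes osteopontin, was at 1718, 125 and 789 CPM in the members and at 9266, 3567 and 2528 CPM in the Gpnmb barcodes. A single control member with 1626 UMIs held 55.2% of the control Spp1, and that level was 787 CPM without the member that held 10 or more Apoe UMIs. Mmp12 was lower in the members than in the Gpnmb barcodes, which had 1428, 1187 and 1023 CPM, with a mean log2 ratio of -1.25. The Gpnmb levels rested on single barcodes, which held 227 of 519, 152 of 177 and 453 of 937 Mmp12 UMIs. The other 19, 9 and 51 Gpnmb barcodes had 877, 197 and 554 CPM, so without its highest barcode the HHcy class was below the members. With every barcode holding 3 UMIs of another lineage left out, that ratio was 0.14. Mmp14 and Mmp19 were also at higher levels in the Gpnmb barcodes, 305, 215 and 261 CPM for Mmp14 and 264, 73.7 and 133 for Mmp19, against 28.0, 10.3 and 14.5 of Mmp19 in the members. Of 4 matrix metalloproteinases and inhibitors tested in this comparison, 0 were called, and the HHcy Gpnmb levels come from 10 barcodes. On the higher side of the members were Ifitm1, Mgl2 and St3gal6, with Ifitm1 at 85.8, 343 and 92.3 CPM against 5.50, 6.70 and 4.37. S100a8, S100a9 and Retnlg, genes of neutrophils, had high mean ratios there too, but S100a8 was under 2-fold in the control library and moved with the neutrophil sum given above. The control Gpnmb barcodes also held mast cell genes, with Mcpt4 at 1018 CPM against 64.8 in the members.

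Between the members of the HHcy and control libraries, 210 of 5052 genes were past 2-fold (4.16%), 86 higher (1.70%) and 124 lower (2.45%) in HHcy, with a median log2 ratio of -0.11. Many of these calls rested on low levels or on few barcodes. Of the 210 genes, 129 had over 50% of their UMIs in 10 barcodes. Genes are named here only with at least 50 CPM, 20 barcodes with a UMI and at most 50% of the UMIs in the 10 highest barcodes. The limits apply in the library with the higher level, which had 90 members for genes higher in HHcy and 169 for genes lower. They were thus not equal for both directions, since 10 or 20 barcodes are a larger part of 90 than of 169. No gene that met these limits was past 2-fold higher in the HHcy members. The highest of them were Bcl7c at 33.8 and 66.7 CPM (log2 0.98), AY036118 (0.96) and the interferon-stimulated Oasl2 at 54.8 and 103.5 CPM (0.92, 0.48 to 1.35). Cmklr1, the receptor for the chemoattractant chemerin, was at 40.8 and 67.8 CPM (0.73, 0.21 to 1.25). Of the rest, Actr10, Sri, Ptpmt1, Dctn2, Park7 and Rnaseh2c lay between 0.70 and 0.80.

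Genes at lower levels in the HHcy members did meet the limits. Fcrls, an Fc-receptor-like protein known from microglia, was at 187 CPM in the control and 85.1 in the HHcy members (log2 -1.14, -1.52 to -0.77), and at 235 in the WD members. Zmym5 (-1.36), the fatty acid transporter Slc27a1 (-1.20), the replication licensing factor Cdt1 (-1.14), Sp3 (-1.13) and the retinoblastoma gene Rb1 (-1.04) were past 2-fold as well. Cnot6, Actn4 and Cxcr4 were just under 2-fold. Each of these ratios compares 1 library with 1 library, and the intervals hold no spread between mice.

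Neutrophil genes were higher in the HHcy members as a list, 11 of 11 tested with a median log2 ratio of 5.15, and 8 of 12 classical monocyte genes were higher (1.88). S100a8 was at 46.1 CPM in the control members and 3442 in the HHcy members, where 1 barcode with 1852 UMIs held 61.9%. Without the mixed barcodes, which include barcodes with neutrophil genes, S100a8 was at 89.3 CPM in the HHcy members, 2 of 2 testable neutrophil genes were past 2-fold (1.79) and 3 of 6 classical monocyte genes (0.86). With every barcode holding 3 UMIs of another lineage left out, 0 of 3 testable classical monocyte genes were higher and 2 lower (median -2.36). Of 7 matrix metalloproteinases and inhibitors, Mmp8, Mmp9 and Mmp13 were higher and Mmp19 lower. Mmp8 and Mmp9 are enzymes of neutrophil granules and were at 2.24 and 4.47 CPM in the HHcy members without the mixed barcodes. Mmp13 was still higher there, at 217 CPM. Of 10 cell cycle genes, Mki67, Top2a, Birc5 and Pclaf were lower and 0 higher (median -0.60), with Top2a at 42.0 and 3.45 CPM. The HHcy level of Top2a was 3 UMIs, the floor of these ratios. Few members divided in either library: the cluster led by cell division genes, described below, held 3 control and 0 HHcy members. Of 15 interferon-stimulated genes, Ifit2 and Ifit3 were higher and 0 lower (median 0.34), with Ifit3 at 25.7 and 72.4 CPM. None of 16 core macrophage genes was past 2-fold (0.11). Of 9 LXR target genes, Apoe, Apoc2 and Smpdl3a were higher, beside the Apoe level of the whole library.

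Between the members of the WD and control libraries, which share the control library with the comparison above, 131 of 5794 genes were past 2-fold (2.26%), 93 higher (1.61%) and 38 lower (0.656%), with a median log2 ratio of 0.01. Chemokines that draw CCR2-bearing monocytes and interferon-stimulated genes were on the higher side. Ccl2 was at 471 CPM in the control, 514 in the HHcy and 1294 in the WD members, and it was detected in 56.8%, 47.8% and 78.9% of them. Ccl7 was at 356, 314 and 1017 CPM and Ccl12 at 281, 305 and 842 CPM. For all 3 chemokines the WD members were highest, while the control and HHcy members differed less. The log2 ratios of WD over control were 1.46 (1.35 to 1.57) for Ccl2, 1.51 (1.39 to 1.63) for Ccl7 and 1.59 (1.45 to 1.73) for Ccl12. Without the mixed barcodes Ccl2 was at 422, 759 and 1313 CPM, so the HHcy members then stood between the others.

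Of 19 interferon-stimulated genes, 8 were past 2-fold higher in the WD members and 0 lower (median 0.76): Ifit3, Irf7, Oasl2, Usp18, Ifi44, Stat2, Ifi47 and Zbp1. Irf7, the transcription factor that amplifies interferon responses, was at 51.9, 62.1 and 132 CPM and was detected in 25.4%, 22.2% and 51.4% of members. Ifi44 was at 10.5, 17.2 and 47.9 CPM, and Isg15, also on the list, was at 216, 246 and 199 CPM. The WD members were thus highest for Irf7 and Ifi44 but not for Isg15. Without the mixed barcodes 9 of 19 were higher (0.88). In the other Csf1r barcodes Irf7 stood at 149, 167 and 178 CPM. Ifi213, Ifi206, Fgl2 and Ly6a were also among the 10 highest named genes, with log2 ratios of 1.57, 1.36, 1.42 and 1.37. Ifi213 and Ifi206 belong to a family of similar sequences, so their reads may be split among its copies. Ctla2a led the named genes at 12.8 and 64.7 CPM (2.33, 1.71 to 3.03). AY036118, at 208, 403.5 and 743 CPM, was second.

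Mmp12 and Mmp13 did not meet the naming limits, with 51.2% and 71.4% of their control UMIs in 10 members. The named genes at lower levels in the WD members included regulators of adhesion and proteolysis. Cadm1, a cell adhesion molecule, was at 137, 143 and 44.8 CPM (WD over control -1.61, -1.88 to -1.34). Zmynd15 was at 152, 187 and 63.9 CPM (-1.25), and Plau, the urokinase plasminogen activator, at 169, 118 and 75.7 CPM (-1.16). Tnfaip2 was at 368, 312 and 156 CPM (-1.24), and Cxcr4, the receptor for CXCL12, at 341, 177 and 161 CPM (-1.08). The apoptotic cell receptor Mertk was under 2-fold with 85.8, 70.1 and 46.3 CPM (-0.89), as were Tcf7l2, Lilra5, Gm26532 and S1pr1, from -0.96 to -0.87. The Cadm1 and Zmynd15 levels of the HHcy members were close to those of the control members. The Plau level of the HHcy members lay between the others.

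Other lists are given by their counts. Of 15 cell cycle genes, 5 were higher (median 0.82), but 1 of 15 (0.64) without the mixed barcodes. Classical monocyte genes were higher for 5 of 11 (0.95), and for 7 of 8 without the mixed barcodes (1.36). Neutrophil genes were higher for 7 of 9 (3.08) and for 1 of 4 without those barcodes. Fibroblast genes were higher for 4 of 5 (2.28), and their sum was 205, 178 and 347 CPM in the members. The part of these cells in the WD values was not tested beyond the left-out barcodes. Of 10 MHC class II genes, 1 was higher and 0 lower (-0.25), with H2-Aa at 5301, 7139.7 and 4432 CPM. None of 16 core macrophage genes (0.04) or 20 genes of cathepsins and the lysosome (-0.05) was past 2-fold. Mast cell genes were lower for 3 of 3 in both comparisons, and the mast cell sum was 193, 6.90 and 12.4 CPM in the members. The control value rested on single members, with 59 of 63 Cpa3 UMIs and 106 of 111 Mcpt4 UMIs in the highest barcode.

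**Figure D4:**
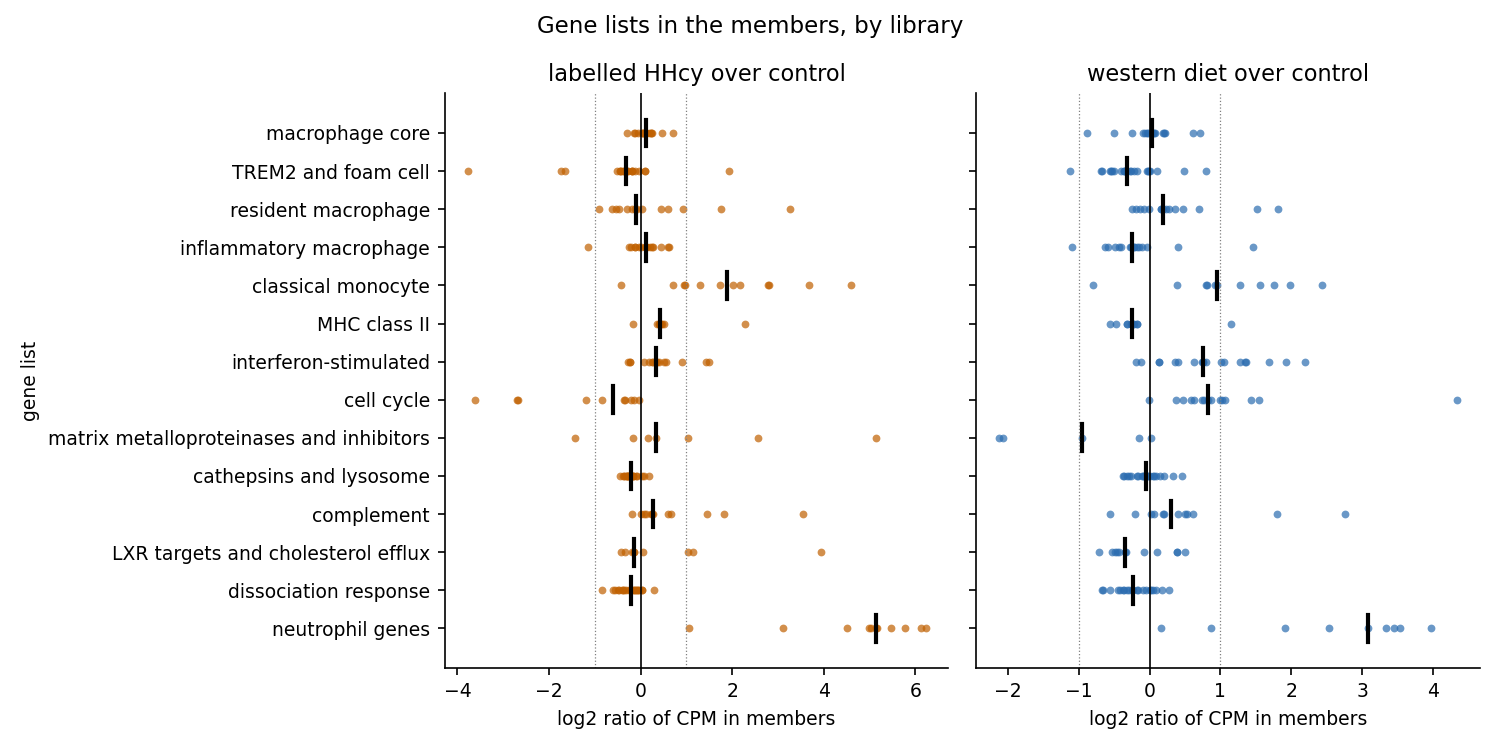
Log2 ratio of HHcy over control and WD over control in the members (x axes) for the genes of selected lists (y axis), with 1 point per gene, a black bar at the list median and dotted lines at 2-fold. The interferon-stimulated genes have a median of 0.76 for WD over control, and the core macrophage genes have medians of 0.11 and 0.04.

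The members also varied among themselves. They were clustered with the 359 genes past 2-fold between libraries left out, and 8 clusters were found. Genes that vary along with those 359 were kept, so library differences can still shape the clusters and their sizes. This clustering was added after the data were seen. Clusters are numbered and described by their leading genes, and because clusters were made from the genes of the same cells, no difference between clusters was tested. Cluster 1 was led by Adgrl3, an adhesion receptor, and Clec1b, a C-type lectin, and among the genes left out by Mmp13, Vcam1 and H2-M2. It held 20.7% (14.9 to 27.6) of control members, 33.3% (23.7 to 44.1) of HHcy members and 4.62% (2.88 to 6.97) of WD members. Cluster 3 was led by interferon-stimulated genes (Oasl1, Ifi44, Ifit3, Ifi47) with Ccl7 and Ccl12, and held 21.3%, 17.8% and 38.2%. Cluster 4, led by Apbb2, Igf1, Cdk18, Nes and Dcstamp, held 27.2%, 23.3% and 21.5%. Cluster 1 was thus least frequent and cluster 3 most frequent in the WD library, while the share of cluster 4 was similar in all 3. The planned clustering, which kept the 359 genes, was made from the same members and is no independent repeat. It also gave 8 clusters. There the cluster led by Adgrl3 and Mmp13 held 18.3%, 32.2% and 3.30% of members. The cluster led by Oasl1 and Ifi44 held 16.0%, 13.3% and 35.4%, and that with Apbb2 and Nes among its leading genes 24.9%, 24.4% and 24.0%.

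Mmp12 was highest in clusters 1 and 4 in each library. Cluster 1 had 1662, 1783 and 1118 CPM of Mmp12 and 249, 788 and 411 CPM of Mmp13. Cluster 4 had 1326, 936 and 388 CPM of Mmp12 and 58.3, 32.4 and 2.56 CPM of Mmp13. Cluster 1 held 90 of the 192 Mmp13 UMIs of the control members, and 2 control members of cluster 5 held 51. In cluster 4 the WD members were therefore lower in Mmp12 than the control members, and in cluster 1 the distance was smaller. When both libraries were given the same mix of 5 clusters, WD over control was -1.16 for Mmp12 (374 against 836 CPM) and -0.12 for Mmp13 (96.6 against 105 CPM). The WD level of Mmp13 in this mix leaned on cluster 1, where 21 WD members held 85 UMIs in 9 barcodes. Whether the cluster mix accounts for the Mmp13 difference was not tested. For HHcy over control the same mix gave -0.29 for Mmp12 and 0.80 for Mmp13. The mix was chosen after the values were seen.

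Clusters 1 and 4 differed in their other genes. Nes was at 348, 236 and 289 CPM in cluster 4 and at 163, 132 and 208 in cluster 1. Trem2 was at 807, 718 and 601 CPM in cluster 4 and at 295, 136 and 165 in cluster 1. Antigen presentation genes ran the other way: Cd74, the invariant chain of MHC class II, was at 28094, 32881 and 20522 CPM in cluster 1 and at 5893, 13577 and 3987 in cluster 4. H2-Aa was at 7817, 10346 and 5918 CPM in cluster 1 and at 1561, 4538 and 938 in cluster 4. Tnf, an inflammatory cytokine, was at 2593, 2468 and 1959.8 CPM in cluster 1 and at 783, 1103 and 705 in cluster 4. Mmp12 was therefore shared by a cluster high in Cd74 and Tnf and a cluster high in Trem2 and Nes. Ccr2, the receptor for Ccl2, was low in both, with 30.4, 8.25 and 62.9 CPM in cluster 1 and 29.2, 23.2 and 75.1 in cluster 4, against 493, 209 and 524 in cluster 3.

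The remaining clusters were smaller or less distinct. Cluster 2, led by the heat shock genes Hspa1b and Hspa1a with Cbr2 and Maf, held 16.0%, 8.89% and 11.2% of members and had 0, 13.8 and 17.1 CPM of Mmp12. Cluster 5, led by Tbc1d4, Napsa and Nr1h3 with Fabp5 and Plac8, held 12.4%, 7.78% and 14.3%. It had a median of 16826 UMIs per barcode, and 37.6% of its barcodes were mixed. Cluster 6 (15 barcodes) was led by neutrophil genes and consisted of mixed barcodes, cluster 7 (35 barcodes) was led by cell division genes such as Pbk and Ccna2, and cluster 8 held 8 barcodes. Cluster 7 held 3, 0 and 32 members. In cluster 3, Ccl2 was at 1001, 1154 and 1872 CPM and Irf7 at 73.6, 129 and 252 CPM, so for these 2 genes the WD members were highest within this cluster. For Ifit3 (51.5, 298 and 153 CPM), Stat2 (25.8, 99.5 and 90.0) and Ifi47 (18.4, 139 and 80.8) the HHcy members were highest there, and for Usp18, Oasl2 and Ifi213 too. The HHcy members of this cluster numbered only 16 and held 30 UMIs of Ifit3, 10 of Stat2 and 14 of Ifi47. These orders thus rest on few counts, and HHcy and WD lay close for Stat2.

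**Figure D5:**
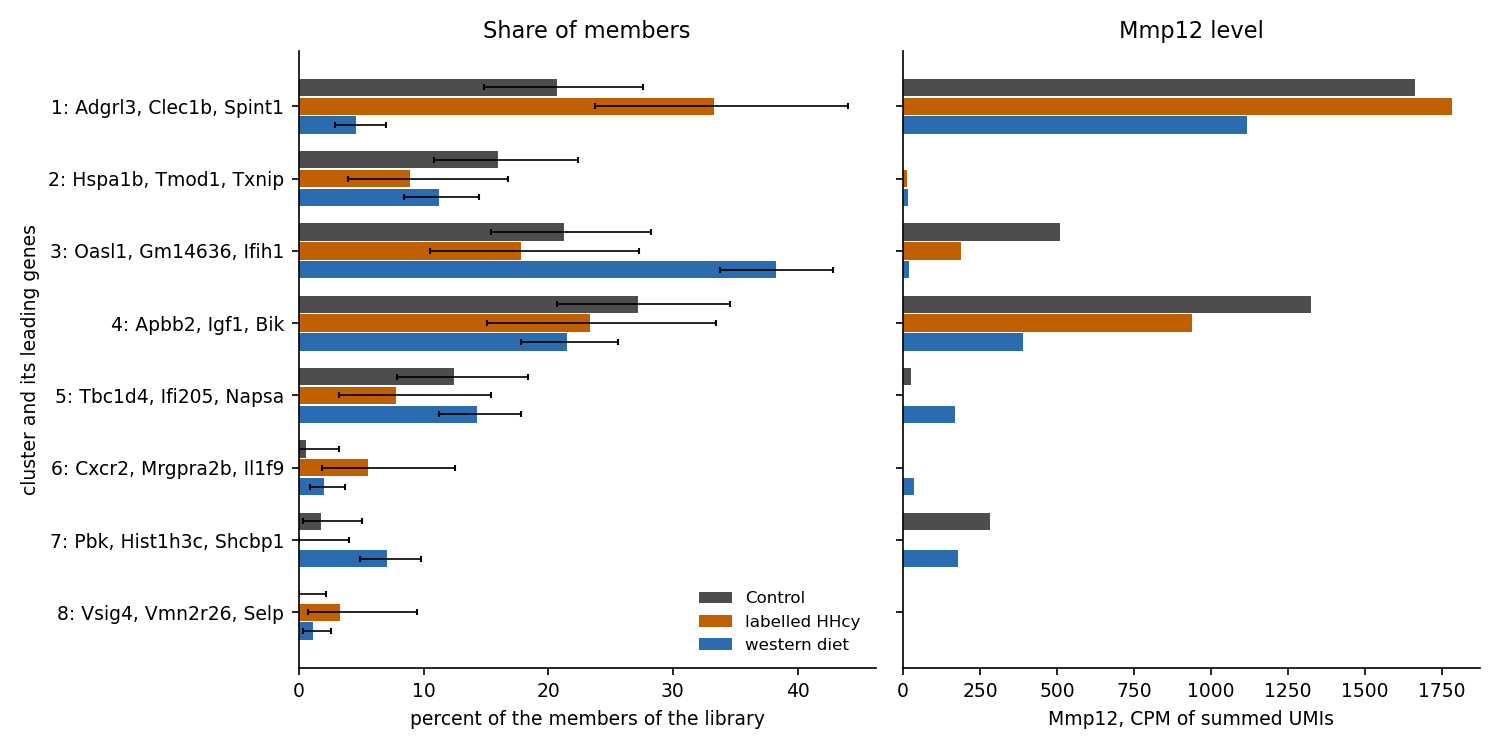
Left, share of the members of each library in each cluster (y axis) in percent (x axis), with exact 95% binomial bars; right, Mmp12 in CPM (x axis) by cluster and library. Cluster 1 holds 4.62% of the WD members against 20.7% and 33.3% of the others, and clusters 1 and 4 hold the highest Mmp12.

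Some genes were detected in the same members more often than in the rest. Nes was detected in 164 of 244 members with Apbb2 (67.2%) and in 101 of 470 without it (21.5%), and after thinning in 29.8% and 14.5%. Nes was detected in 60.8% of members with Mmp12 and in 27.1% of those without, and after thinning in 29.9% and 12.8%. Mmp13 was detected in 28 of 39 members with Adgrl3 (71.8%) and in 50 of 675 without (7.41%). After thinning this was 5 of 15 (33.3%, 11.8 to 61.6) and 6.07%, with 0 of 3 and 10.3% in the control library. Nes was detected in 25.3% of members with Ccr2 and in 47.6% of those without, and after thinning in 8.67% and 19.4%. Trem2 was detected in 44.9% of members with Mmp13 and in 71.2% of those without. After thinning, the Trem2 shares were 31.3% and 39.4% in the control, 11.8% and 33.3% in the HHcy and 35.7% and 38.7% in the WD library, so the control and WD differences were small beside their counting error. These shares are descriptions of barcodes from 3 libraries, and they carry no test.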

How the data were processed

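Members and gene lists were chosen with earlier results of these data known. The authors deposited matrices of raw UMI counts per gene and barcode, 1 per library, with 32285 genes. Cell Ranger 4.0.0 wrote them per the file headers, while the submitters' processing notes name Cell Ranger 2.2.0 and the build mm10. Coordinates are from GENCODE M21 (mm10). Kept barcodes had at least 200 detected genes and at most 10% mitochondrial UMIs. No doublet caller was run: B and T cell markers in the rule, and left-out mixed barcodes, stood in for it. UMIs were summed by class and library and scaled to CPM. With 1 library per group no test was possible, so genes were called past 2-fold, with counts under 3 set to 3. Genes named were the 12 (or 6) highest and lowest mean ratios with 1 sign in all 3 libraries, and the 10 highest and lowest between libraries among genes with 50 CPM, 20 barcodes and at most 50% of UMIs in 10 barcodes. Clustering used scanpy 1.11.5 (Leiden, resolution 0.5, 15 neighbours, 20 components, 1000 variable genes, seed 1), with python 3.11.15, numpy 2.4.6, scipy 1.17.1 and pandas 2.3.3. A few genes that met the naming rule are not reported here. The 2-fold calls were tried on simulated counts for WD against control in the members, with counting error only. Spread between barcodes or mice was not simulated, so the simulation does not bear on it. Alternatives were the limits of the rule, thinning, other lineages, Apoe, weighting, filters and the cluster mix. The files held 0 columns of other samples.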

Additional observations from a re-analysis of the deposited data

How the results depend on the processing

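Of 416 values recomputed under alternatives, 338 moved by less than their error or by under 1.5 times, 74 moved further and 4 that were past 2-fold changed sign. Among log2 ratios under 2-fold, 5 more changed sign, 3 of them for Mmp12 in HHcy over control, which was -0.17 as reported, and 2 for Mmp13 against Gpnmb barcodes (-0.44 when thinned and -1.57 with 3 UMIs of another lineage left out). No paired analysis was possible because each group had 1 library. With mitochondrial UMIs limited to 5%, the share of members was 3.45% in the control and 7.91% in the WD library, and Mmp13 in HHcy over control was 0.68 (log2). With 1 C1qa UMI allowed, 102 genes were called against Gpnmb barcodes and Mmp12 in HHcy was -0.35. With 2 Ms4a7 UMIs required, the shares were 2.30% (control) and 5.92% (WD), Mmp13 in HHcy was 1.51 and Mmp12 in WD -2.24. With 1 Gpnmb UMI allowed, Mmp12 in WD was -1.90. Thinned to 2000 UMIs before the rule, the shares were 1.75% (HHcy) and 9.20% (WD), 4, 63 and 206 genes were called against Gpnmb barcodes, in HHcy and in WD, Mmp13 and Nes in HHcy were 1.43 and -0.0887, Mmp12 and Mmp13 in WD were -1.77 and -1.73, and Nes against Gpnmb barcodes changed sign (-0.65, against 1.94). Without barcodes holding 3 UMIs of another lineage, which left 52, 17 and 117 members, the shares of the barcodes left were 5.31%, 5.06% and 13.1%. That limit gave 122, 3 and 103 genes against other Csf1r, Gpnmb and Lyve1 or Folr2 barcodes and 197 in WD. Against Gpnmb barcodes, Mmp12 (0.14, against -1.25) and Nes (-1.66) changed sign, as did Mmp13 in HHcy (-0.25, against 1.04). Mmp12, Nes and Trem2 in HHcy were 0.83, -0.14 and -0.91, and Mmp12 in WD was -2.65. With each barcode weighted equally, 328 genes were called in HHcy and 213 in WD, Mmp12 and Mmp13 in HHcy were 0.14 and 1.71, and Mmp13 and Trem2 in WD were -1.71 and -0.15. At 50 CPM, 147 and 121 genes were called against other Csf1r and Lyve1 or Folr2 barcodes, 74 in HHcy and 54 in WD. Without a filter on levels, 702, 203 and 384 were called against other Csf1r, Gpnmb and Lyve1 or Folr2 barcodes, 1031 in HHcy and 1562 in WD. The next 2 alternatives, without mixed barcodes and with the same cluster mix, were chosen after seeing the data. Without mixed barcodes the shares of the barcodes left were 6.44%, 4.83% and 14.1%, 40 genes were called against Gpnmb barcodes, Mmp12, Mmp13 and Nes in HHcy were 0.0481, 1.36 and -0.19, and Mmp13 in WD was -1.63. With the same cluster mix, Trem2 in HHcy was -0.16, and Mmp12, Mmp13 and Nes in WD were -1.16, -0.12 and -0.0141. The cause of these shifts was not tested. The 90 members of the HHcy library and the 10 Gpnmb barcodes there limit what can be seen of low genes.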
